A study of Mus musculus with 6 samples.

Results

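Sphk1, Sphk2, Sgpl1, Sgpp1, Spns2, S1pr1, S1pr2, S1pr3 and S1pr4 make, break down, export and receive sphingosine 1-phosphate (S1P), and they were 9 of the 16440 genes measured by RNA-seq in 3 libraries of normal mouse myeloid progenitors (MPs) and 3 libraries of acute promyelocytic leukemia (APL) cells. The genes were chosen by a measured value of these same libraries, the difference of the kinase Sphk1 between APL cells and MPs, which was among the largest of all genes, together with its pathway. So every difference between the groups given for the 9 genes is a description; no P value is given for them, and where they are counted by the rule applied to all genes the count tests nothing. All 9 passed the filter on low values (at least 1 scaled fragment in at least 3 of the 6 libraries), as did 14595 genes in all.

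MPs were Lin-Sca-1-c-Kit+ bone marrow (BM) cells of normal FVB N/J mice, a gate that holds common myeloid, granulocyte-monocyte and megakaryocyte-erythroid progenitors together. APL cells were c-Kit+ GFP+ BM cells of syngeneic recipients of leukemic cells from hMRP8-PML/RARα mice, in which the MRP8 promoter drives the human fusion gene in myeloid cells; the GFP came from the retroviral vector MigR1. Transgene, vector and transplantation are described for the APL cells alone and so cannot be told apart here. The labels call the libraries biological replicates without saying whether each came from a separate mouse or leukemia, so the spread between them may in part be technical.

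S1P is a lipid messenger made inside cells when a sphingosine kinase phosphorylates sphingosine, the backbone released from ceramide. The lyase Sgpl1 cleaves S1P irreversibly and the phosphatase Sgpp1 returns it to sphingosine, while transporters such as Spns2 in endothelium and Mfsd2b in red cells and platelets release it into lymph and blood. Outside the cell it acts on G protein-coupled receptors, and its gradient between blood and tissue guides the exit of lymphocytes and of hematopoietic progenitors from lymphoid organs and marrow.

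Scaled fragments are the estimated fragments of a gene after the authors' scaling of each library, and they compare a gene between libraries; FPKM (fragments per length of transcript and per mapped fragments) also allows for length, and it is used to compare genes with each other. Fold changes are APL minus MP on the log2(scaled fragments + 1) scale with their standard error (SE), 3 libraries against 3, and a gene counted as called when limma's Benjamini-Hochberg adjusted P was under 0.05 and the fold over 1.5. By this rule 8 of the 9 S1P genes were called, 4 lower and 4 higher in APL, where 46.1% of all genes tested were called (24.4% lower and 21.7% higher); since the choice of genes used this contrast, nothing is read from that count. The 3 libraries of each group did not overlap for any of the 9, as for 70.9% of all genes.

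Total fragments before scaling ran from 22976905 to 26932327 in MPs and from 20608715 to 28382785 in APL. MP library 3 stood apart: the median squared difference from the other MP libraries was 15.4 and 15.6 times what counting error gives, against 3.15 between MP libraries 1 and 2 and 3.42 to 6.94 within APL. Kit, the gene behind the c-Kit gate, measured 10442 to 10970 scaled fragments in MPs and 5780 to 6033 in APL. Ly6a, which encodes Sca-1, measured 19.1 to 32.0 and 39.0 to 48.8.

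Sphk1, the inducible cytoplasmic sphingosine kinase (chr11:116531911-116536675 on GRCm38, the build of all loci here), had the highest FPKM of the 9 genes in MPs and was close to silent in APL. The MP libraries held 1585, 1807 and 2334 scaled fragments and the APL libraries 5.89, 6.94 and 4.94. Before scaling these were 1692, 1898 and 2588 fragments in MPs against 5, 8 and 4 in APL. Every MP library lay far above every APL library, and the MP libraries differed among themselves by more fragments than the APL libraries held in all. In bulk samples, fewer cells of a type and less RNA per cell cannot be told apart.

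In FPKM, Sphk1 measured 47.2 ± 7.89 (SD, n = 3) in MPs and 0.158 ± 0.0258 (SD, n = 3) in APL, percentiles 90.0 and 27.1 of the genes in the table. The log2 fold change was -8.10 (SE 0.20), a 274-fold lower level, and 4 of the 14595 genes tested (0.0274%) had a lower one. The APL values rest on 17 fragments in all. The ratio of summed fragments, allowing for the authors' scaling of each library, was 317. Its 95% interval of 198 to 544 covers counting error only. On the log2(FPKM + 1) scale the difference was -5.37, as the pseudocount then exceeds the APL level.

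Sphk2, the kinase isoform found in the nucleus and mitochondria (chr7:45705247-45718002), differed in the other direction and by much less. It measured 983, 988 and 1119 scaled fragments in MPs and 1292, 1615 and 1471 in APL, so that the groups did not overlap. The log2 fold change was 0.50 (SE 0.10), a 1.41-fold difference under the fold needed for a call. Its locus overlaps those of Dbp and the ribosomal protein gene Rpl18, which held 62.8 to 119 and 19694 to 31006 scaled fragments in MPs and 34.2 to 61.7 and 15285 to 19780 in APL, and the division of fragments between them is not known.

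The make-up of the kinase transcripts was therefore inverted. Sphk1 made up 79.6% ± 1.95 (SD, n = 3) of the summed kinase FPKM in MPs, between 77.6% and 81.5%, and 0.924% ± 0.0806 (SD, n = 3) in APL. The sum of both kinases was 59.2 ± 8.44 FPKM in MPs and 17.1 ± 1.82 in APL, which in APL was 99.1% Sphk2.

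**Figure D1:**
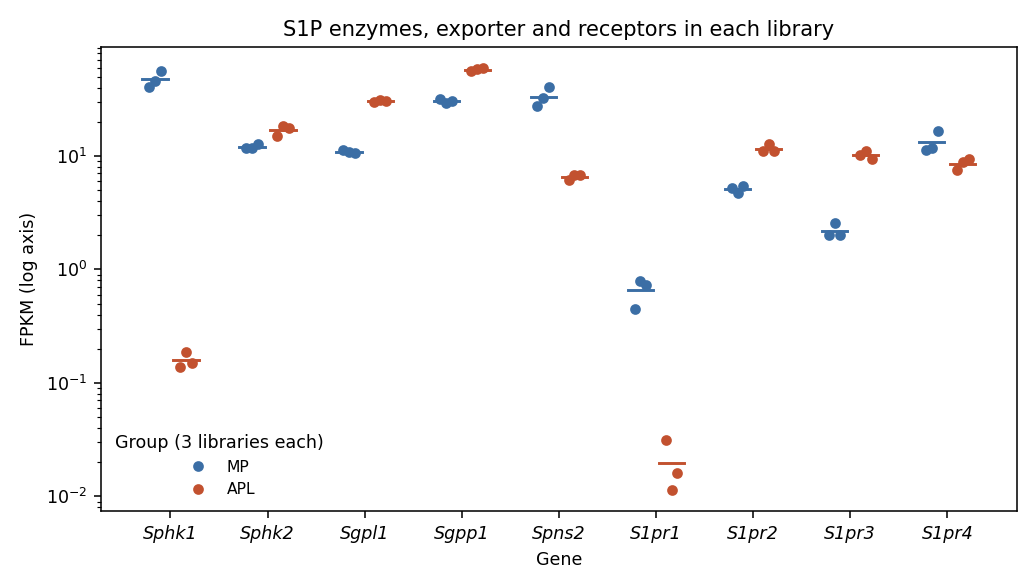
FPKM of the 9 S1P genes in each of the 6 libraries, on a log10 axis; points are libraries and bars the mean of 3 per group. Sphk1 sits between 40.3 and 55.8 in MPs and between 0.137 and 0.187 in APL, and no gene has overlapping groups.

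Sgpl1, the lyase that removes S1P for good (chr10:61098642-61147665), was higher in APL. It measured 1278, 1240 and 1215 scaled fragments in MPs and 3413, 3631 and 3551 in APL, with an SD of 32.1 and 110 around means of 1244 and 3532. The gap between the groups was many times the spread within either, at a log2 fold change of 1.5 (SE 0.06), or 2.84-fold.

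Sgpp1, the phosphatase that returns S1P to sphingosine in the endoplasmic reticulum (chr12:75714248-75735729), was higher as well. The MP libraries held 2378, 2237 and 2282 scaled fragments and the APL libraries 4229, 4529 and 4607, a log2 fold change of 0.95 (SE 0.07), or 1.94-fold. In APL it had the highest level of the 9 genes, 57.7 ± 1.95 FPKM (SD, n = 3), percentile 91.5 of all genes.

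Set against each other in FPKM, the kinases summed to 1.44 ± 0.235 (SD, n = 3) times the sum of Sgpl1 and Sgpp1 in MPs, between 1.21 and 1.68, and to 0.193 ± 0.0154 times it in APL. The sum of Sgpl1 and Sgpp1 alone was 41.3 ± 1.44 FPKM in MPs and 88.3 ± 2.67 in APL. These are ratios of transcripts, not of enzyme activity or S1P.

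Spns2, the S1P exporter (chr11:72451638-72489904), held 2229, 2598 and 3388 scaled fragments in MPs and 507, 575 and 554 in APL. All MP libraries lay above all APL libraries, with MP library 3 the highest, as for Sphk1. The log2 fold change was -2.31 (SE 0.14), or 4.95-fold, and without MP library 3 it was -2.14. The locus touches the end of Mybbp1a, a nucleolar protein gene that held 12167 to 13364 scaled fragments in MPs and 8476 to 8985 in APL. It also overlaps the locus of Gm40194.

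Of the receptors, S1pr4, a receptor mostly found on blood and lymphoid cells (chr10:81497745-81500137), had the highest level in MPs. It measured 595, 617 and 920 scaled fragments there and 406, 475 and 495 in APL. The highest APL library lay just under the lowest MP library, and MP library 3 stood far above the other MP libraries. The log2 fold change was -0.61 (SE 0.17), or 1.52-fold; without MP library 3 it was -0.41, and the gene was then no longer called.

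S1pr2, which signals mainly through G12/13 (chr9:20965952-20976793), measured 321, 293 and 348 scaled fragments in MPs and 701, 813 and 701 in APL, a log2 fold change of 1.20 (SE 0.11). S1pr3, which couples to Gi, Gq and G12/13 (chr13:51408618-51422797), measured 218, 283 and 220 in MPs and 1129, 1234 and 1029 in APL, a log2 fold change of 2.24 (SE 0.13), or 4.71-fold. Every APL library held over 2 times the S1pr2 and over 3 times the S1pr3 of any MP library. S1pr3 shares its locus with the non-coding RNA gene Gm32834.

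S1pr1, the Gi-coupled receptor of lymphocyte egress (chr3:115710433-115715055), was low in MPs and nearly absent from APL. It held 33.7, 59.0 and 55.0 scaled fragments in MPs and 2.36, 0.867 and 1.23 in APL, where 4 fragments were seen in all before scaling. The ratio of summed fragments, allowing for the scaling, was 34.6 with a 95% counting interval of 13.3 to 129. The fitted log2 fold change of -4.34 (SE 0.35) depends on the pseudocount and was -2.63 on log2(FPKM + 0.1). S1pr5, the remaining receptor, had at most 5 fragments in any library, and no difference could be seen at this depth.

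The receptor mixture differed between the groups while its sum differed less. Summed over S1pr1 to S1pr5 it was 21.2 ± 3.15 FPKM (SD, n = 3) in MPs and 30.4 ± 1.93 in APL. S1pr4 made up 61.9% ± 4.53 of it in MPs and 28.2% ± 2.76 in APL. S1pr3 made up 10.5% ± 2.49 and 33.5% ± 2.07, and S1pr2 24.3% ± 2.78 and 38.1% ± 0.907. S1pr1 contributed 3.10% ± 0.816 in MPs and 0.0657% ± 0.0379 in APL.

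**Figure D2:**
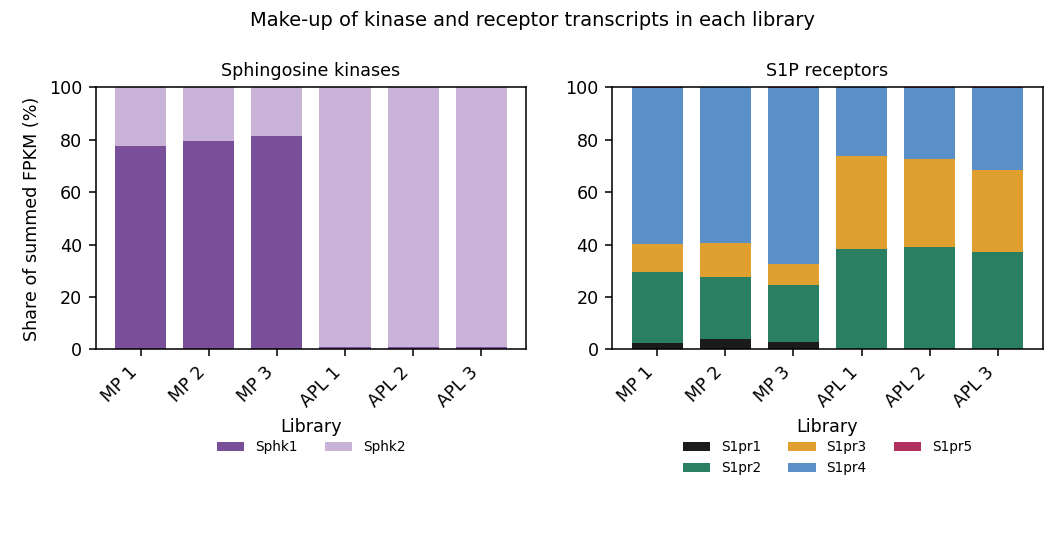
Share of summed FPKM (%) taken by each sphingosine kinase (left) and each S1P receptor (right) in each library; each bar is 1 library and adds to 100%. Sphk1 takes 77.6% to 81.5% of the kinase bars in MPs and at most 1.01% in APL, and S1pr4 takes 59.2% to 67.1% of the receptor bars in MPs and 26.3% to 31.4% in APL.

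In order of FPKM, MPs ran Sphk1, Spns2, Sgpp1, S1pr4, Sphk2, Sgpl1, S1pr2, S1pr3 and S1pr1, where the libraries of Spns2 and Sgpp1, and those of S1pr4 and Sphk2, overlapped. APL ran Sgpp1, Sgpl1, Sphk2, S1pr2, S1pr3, S1pr4, Spns2, Sphk1 and S1pr1, where S1pr2 overlapped S1pr3 and S1pr3 overlapped S1pr4. Sphk1 went from the first place to the eighth, and the enzymes that remove S1P took the first places in APL.

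Windows before the start of Sphk1 and of 3 receptors, 2 higher and 1 lower in APL, are shown because these genes carry the changes in kinase and receptor make-up. The sequences are from RefSeq (GRCm38.p6), 5′ to 3′ on the strand of the gene, and 7 of the 9 genes had a window of 250 bases whose start matched the locus of the table within 50 bases. That of Sphk1, on the plus strand at chr11:116531661-116531743, is cut to the 83 bases that no exon covers in an annotation of the earlier mouse build. The others are whole, S1pr2 on the minus strand at chr9:20976794-20977043, S1pr3 on the plus strand at chr13:51408368-51408617 and S1pr4 on the minus strand at chr10:81500138-81500387. Capitals mark matches on either strand to GATAA (bound by GATA factors), CACCC (Kruppel-like factors), GAGGAA (PU.1 and other ETS factors) or AGGTCA (nuclear receptors).
Sphk1: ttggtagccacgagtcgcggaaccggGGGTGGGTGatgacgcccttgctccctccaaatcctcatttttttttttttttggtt
S1pr2: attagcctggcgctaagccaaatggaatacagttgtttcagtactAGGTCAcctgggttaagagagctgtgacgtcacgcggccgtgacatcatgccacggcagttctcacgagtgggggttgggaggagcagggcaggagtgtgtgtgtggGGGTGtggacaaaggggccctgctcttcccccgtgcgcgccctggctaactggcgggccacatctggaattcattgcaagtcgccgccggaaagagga
S1pr3: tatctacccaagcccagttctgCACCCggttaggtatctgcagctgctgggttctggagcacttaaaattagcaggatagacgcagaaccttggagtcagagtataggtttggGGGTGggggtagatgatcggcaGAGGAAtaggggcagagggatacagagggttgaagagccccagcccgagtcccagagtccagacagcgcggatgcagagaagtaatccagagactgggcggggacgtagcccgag
S1pr4: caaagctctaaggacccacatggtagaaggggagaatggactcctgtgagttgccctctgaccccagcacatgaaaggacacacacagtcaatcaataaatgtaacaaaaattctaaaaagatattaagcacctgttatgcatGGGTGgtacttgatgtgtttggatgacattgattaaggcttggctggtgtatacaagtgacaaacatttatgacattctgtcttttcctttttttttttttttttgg

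Of the 7 windows, 5 held CACCC, which 52.0% of all 32851 RefSeq windows of this length hold. Whole windows were counted, also where the annotation of the earlier build places exons. Exons of Rpl18 cover 233 bases of the Sphk2 window, and exons of Sphk1 cover 167 bases of its own window. GAGGAA was in 1 of 7 (23.3% of all windows), in S1pr3, and AGGTCA in 1 of 7 (14.0%), in S1pr2. GATAA was in 0 of 7 (22.6%), although windows at 2 later starts of Sphk1 that overlap each other, at a later start of Sphk2 and at the RefSeq start of Spns2 held 1 each. Of these, both later Sphk1 windows and the Spns2 window also held AGGTCA, and the Spns2 window GAGGAA. In the Sphk1 stretch shown the capitals are overlapping CACCC matches on the other strand. These are matches of letters, and binding was not measured.

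The genes whose values ran most like those of Sphk1 over the 6 libraries, among 1575 genes of like mean level, were Pklr (the pyruvate kinase of liver and red cells), Trib2 (a pseudokinase), Slc45a3 (a membrane transporter), Rhag (a red cell membrane protein) and Klf1 (an erythroid transcription factor). The root mean square distance of their centered log2 values from those of Sphk1 was 0.177, 0.227, 0.247, 0.324 and 0.325. Pklr, the nearest, measured 2632 ± 257 scaled fragments (SD, n = 3) in MPs and 7.80 ± 1.63 in APL. Klf1 measured 3157 ± 498 and 15.6 ± 2.30. With 6 libraries in 2 groups this likeness mostly reflects the size of the difference between the groups.

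Markers of 7 cell types were compared between the groups by the same rule. All 10 erythroid markers tested of 11 fell, and their sum was 75124, 76017 and 92444 in the MP libraries in order of their numbers (scaled fragments) against 345 to 537 in APL, where Tmod1 was at 0 in every library. All 6 megakaryocyte markers tested of 7 fell, from sums of 3004, 3011 and 4010 to 189 to 254. For these and the other marker lists, the shares over all genes tested were 24.4% lower and 21.7% higher.

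Of 6 mast cell and basophil markers 5 fell and 1 rose (sums of 6192 to 7594 and 1386 to 1665), and of 6 endothelial markers 5 fell (1875 to 2384 and 192 to 225). Tie1 and Egfl7 made up most of the endothelial sum in MPs (means of 938 and 876). Cdh5 was near the floor and not called, at means of 0.613 in MPs and 2.37 in APL. Of 5 stroma markers 3 fell and 2 rose (486 to 649 and 298 to 334), and of 3 lymphocyte markers tested of 7 listed 2 fell (196 to 253 and 6 to 15), with Cd3e at 0 in every MP library and Cd3g at 0 in every APL library. Most of the lymphocyte sum in MPs was Cd4 (mean of 201). Of 5 granulocyte progenitor markers 3 rose and 0 fell (307335 to 343484 and 771407 to 923993). In mean FPKM, Mpo was the highest of them in MPs (3549) and Elane in APL (9386, against 8354 for Mpo). All of the marker sums except that of the granulocyte progenitor markers were highest among MPs in MP library 3, as were Sphk1, Spns2 and S1pr4, which were lower in APL, and Sphk2 and S1pr2, which were higher; S1pr1, Sgpl1, Sgpp1 and S1pr3 were not. MP library 3 also had the highest total of scaled fragments among MPs, 24288946 against 22108198 and 21876288. In FPKM the MP libraries, in order of their numbers, measured 11.7, 11.6 and 12.7 for Sphk2 and 5.19, 4.70 and 5.40 for S1pr2. Whether the shared order follows from that total was not tested. The part of these markers in the values of the S1P genes was not tested.

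The rest of the pathway was described by 5 lists of 70 genes, of which 66 could be tested. By limma with Benjamini-Hochberg adjustment, 21 fell and 21 rose, so that 63.6% were called where 46.1% of all genes were, and the median log2 fold change was 0.12 where that of all genes was -0.10. The lists were drawn up with earlier results of these data known, and the counts describe them only.

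Among 9 other S1P genes 4 fell and 1 rose, with a median log2 fold change of -0.06. The share called was 55.6%, against 46.1% of all genes. Mfsd2b, the S1P exporter of red cells and platelets, held 4463, 4357 and 5579 scaled fragments in MPs and 43.6, 65.1 and 27.2 in APL, and fell by 6.77 on the log2 scale (SE 0.27; limma adjusted P = 9.1e-08), with a difference of -5.28 on log2(FPKM + 1). Every MP library lay far above every APL library. Together Spns2 and Mfsd2b made up 92.6 ± 14.0 FPKM (SD, n = 3) in MPs and 7.13 ± 0.489 in APL, of which Spns2 was 6.58 ± 0.412.

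Plpp1, a lipid phosphatase of the cell surface that can act on S1P, held 62.7, 70.5 and 89.3 scaled fragments in MPs and 1.18, 0.867 and 2.47 in APL. Before scaling there were 240 fragments against 4, a ratio of 52.3 allowing for the scaling (95% counting interval 20.2 to 194). Plpp2 of the same family rose by a log2 fold change of 0.72 (SE 0.15; limma adjusted P = 0.0028). Plpp3 had 33 fragments in MPs and 1 in APL over 3 libraries each, and Apom, which carries S1P in plasma, 9 and 1; both passed as called, on these few fragments. Aldh3a2, which oxidizes the aldehyde the lyase makes, and the transporter Abcc1 were not called, with log2 fold changes of 0.16 (SE 0.10) and 0.10 (SE 0.06), the latter turning to -0.03 when all libraries were set to the same total. Sgpp2, the other S1P phosphatase, had at most 4 fragments in any library.

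**Figure D3:**
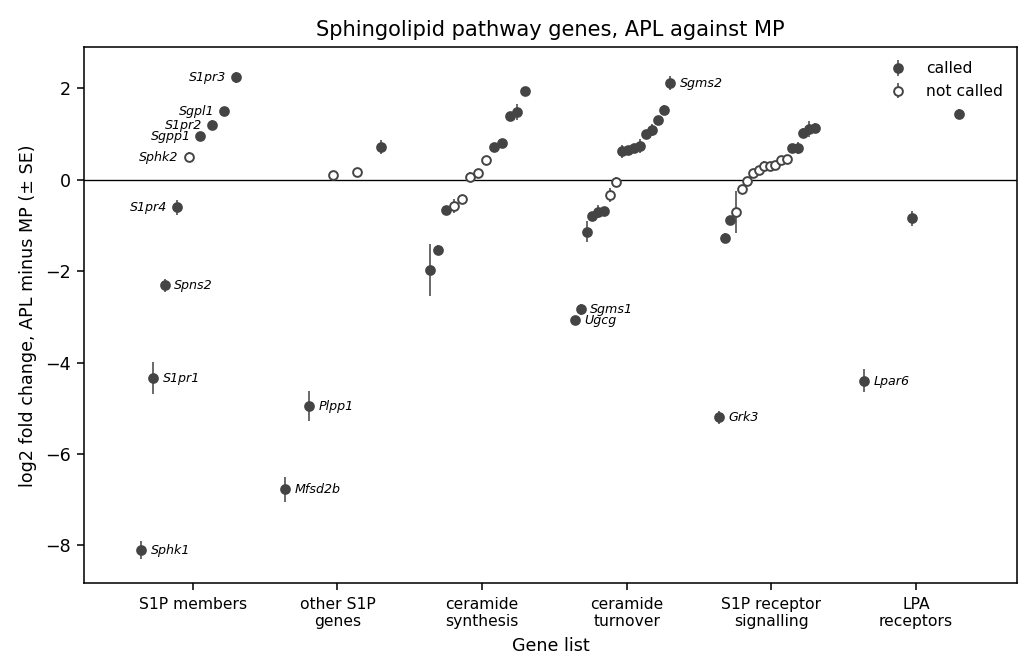
Log2 fold change, APL minus MP, with its SE for the 9 S1P genes and 5 lists of pathway genes, the last being receptors of lysophosphatidic acid (LPA). Filled points were called and open points were not. The 10 tested genes under 20 scaled fragments in every library are left out. Sphk1 at -8.10 and Mfsd2b at -6.77 are the lowest points, and every list has called genes above and below 0.

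In ceramide synthesis 4 genes fell, 5 rose and 6 did not pass among 15 tested of 17 (median log2 fold change 0.14). The share called was 60.0%, against 46.1% of all genes. Degs1, the desaturase that makes ceramide, rose by a log2 fold change of 1.94 (SE 0.09; limma adjusted P = 2.3e-07), from 1084 ± 121 to 4142 ± 182 scaled fragments. The ceramide synthases Cers6 and Cers5 rose by 1.47 (SE 0.17) and 1.39 (SE 0.09). Ormdl3, a brake on the first enzyme of the route, fell by 1.54 (SE 0.10). Degs2 fell by 1.97 (SE 0.57; limma adjusted P = 0.014), with overlapping groups of 9.52 to 36.1 and 2.36 to 9.87 scaled fragments, a call lost without MP library 1, MP library 3 or APL library 1 (adjusted P = 0.052, 0.052 and 0.053). Cers1 fell, on 33 fragments in MPs and 9 in APL.

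In ceramide turnover, the route between ceramide, sphingosine and the larger sphingolipids, 6 genes fell, 9 rose and 4 did not pass among 19 (median 0.16). The share called was 78.9%, against 46.1% of all genes. Asah1, the lysosomal ceramidase that releases sphingosine, rose by a log2 fold change of 1.30 (SE 0.08; limma adjusted P = 8.9e-07). Acer2, a ceramidase of the Golgi, fell by 1.13 (SE 0.22) from 64.9 to 79.6 scaled fragments in MPs to 25.9 to 38.9 in APL. Ugcg, which makes glucosylceramide, fell by 3.08 (SE 0.06; limma adjusted P = 5.6e-09), from 5801 ± 143 to 686 ± 3.94 scaled fragments.

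The paired sphingomyelin synthases moved in opposite directions. Sgms1 fell by 2.84 on the log2 scale (SE 0.11; limma adjusted P = 1.1e-07), from 676 ± 29.0 to 93.8 ± 7.77 scaled fragments, with a difference of -2.11 on log2(FPKM + 1). Sgms2 rose by 2.11 (SE 0.15; limma adjusted P = 3.4e-06), from 1694, 1410 and 1033 to 5884, 5720 and 5869.

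Of 18 genes tested that carry or regulate the signal of S1P receptors 3 fell and 5 rose (median 0.29). That was 44.4% called, near the 46.1% of all genes, so nothing is read from the count. Grk3, a kinase that desensitizes receptors, fell by 5.20 (SE 0.14; limma adjusted P = 1.4e-08), from 1557, 1310 and 1188 scaled fragments to 35.3, 38.1 and 33.3, with a difference of -2.78 on log2(FPKM + 1), while Grk2 was not called. The arrestin Arrb1 fell by 0.87 (SE 0.08) and Arrb2 rose by 1.13 (SE 0.11). Of the guanine nucleotide exchange factors that G12/13 activates, Arhgef12 fell by 1.27 (SE 0.11) and Arhgef11 rose by 1.11 (SE 0.18). Rac2, the hematopoietic Rac, rose by 1.02 (SE 0.12; limma adjusted P = 5.8e-05). Cd69, which holds S1pr1 protein off the cell surface, rose. Klf2, which drives S1pr1 transcription in lymphocytes, was not called, at a log2 fold change of -0.70 (SE 0.46). It held 301, 70.5 and 194 scaled fragments in MPs and 76.6, 99.7 and 125 in APL. With this spread a difference is neither shown nor excluded.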

How the data were processed

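RNA was measured in 6 libraries, 3 of MPs and 3 of APL cells, made with the TruSeq RNA kit, and samples were grouped by their labels. The authors deposited 1 table of 16440 genes with FPKM values, normalized by the authors to transcript length and mapped fragments, and fragment values, a signal that the authors had scaled per library. The submitters' processing notes name CASAVA 1.8, TopHat2 2.0.6 and mm10, while the study's methods name STAR, mm9, HTSeq-count and DESeq2; the tool that made the table is not given in the sources used here. Its loci follow GRCm38 and 16357 gene identifiers were in RefSeq; starts were taken as counted from 0 and 1 was added. Dividing by the smallest step of each library (0.867 to 1.23) gave unscaled fragments, whole within 0.05 for 89.4% to 90.8% of values up to 200, so no count model was used. Whether counting used strand is not given, so overlapping genes are uncertain.

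Scaled fragments were tested with limma 3.58.1 (lmFit, eBayes with trend, R 4.3.3) on log2(value + 1), all 6 libraries, no covariate, with Benjamini-Hochberg adjustment over 14595 genes. The fit was also run on simulated data of 14695 genes, of which 200 were changed. It recovered 97 of 100 genes changed by 1 on the log2 scale and 100 of 100 changed by 2, with 4 false calls. These figures describe the simulated data only. In the real data 46.1% of genes were called and the spread between MP libraries was uneven. Recovery was not broken down by level, so it is not known for genes with few fragments. For ratios of summed fragments, the unscaled sum of each group was divided by the summed inverse steps of its libraries. Counting intervals are exact at 95%.

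The members, lists and tests were chosen with earlier results of these data known. The genes named were the 9 S1P genes, all other S1P genes tested, the 3 largest decreases and 3 largest increases called in each pathway list, and the 5 genes most like Sphk1; Dbp, Rpl18, Mybbp1a, Kit, Ly6a, Grk2, Cd69 and Klf2 were named after their values were seen. Older symbols of the table were matched through RefSeq identifiers. The values of 1 gene of the ceramide lists that this rule names are not reported here. Sptlc3, Sptssb and Lpar3 were not analysed here, and Gnai1 was under the filter. The 17 alternative fits changed the filter, the pseudocount, the scaling, the unit (FPKM), the replicate block and the libraries included, and 2 changed the call rule. Plots used matplotlib 3.10.9 (Python 3.11.15).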

Additional observations from a re-analysis of the deposited data

How the results depend on the processing

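The 9 S1P genes were refitted under 17 alternatives, which gave 151 values, and none changed direction. For 8 of the 9 the side of the call rule was the same in each, for S1pr1 in the 15 that gave a value. Among these fits only S1pr4 lost its call, in 4 settings: a log2 fold change of -0.54 with median ratio scaling, -0.56 on log2(FPKM + 1), -0.41 without MP library 3 and -0.52 without APL library 1. With a fold over 2 in the call rule 6 of the 9 were called, without Sgpp1 and S1pr4. Sphk1 ranged from -8.22 to -5.37, with -8.22 to -7.94 when single libraries were left out. Of 404 values for 24 other named genes, 398 had the same direction and call, and 5 calls were lost, all of Degs2, also with quantile normalization (-1.34, adjusted P = 0.061) and on log2(FPKM + 0.1) (-0.91, adjusted P = 0.076). Abcc1, not called, changed sign to -0.026 with the same total in each library. That scaling moved the median over all genes tested from -0.10 to -0.23 and raised the share of calls that were lower in APL from 52.9% to 60.8%, while median ratio scaling gave 49.0% and quantile normalization 47.9%.

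The number of genes called in all was 6725 and moved most on log2(FPKM + 1), to 4131, where 11131 genes were tested; without single libraries it was 6516 to 6688. The 42 other pathway genes called became 27 with a fold over 2, and 37 to 43 without single libraries. The labels number the libraries 1 to 3 in both groups, but samples with the same number did not deviate together (correlations of 0.26, -0.13 and 0.26 over 11002 genes, and APL library 1 ran more with MP library 2, at 0.36), so the numbers were not taken as pairs. With the replicate number as a block 6753 genes were called, 6673 of them shared with the fit without it, and 8 of the 9 S1P genes and 42 other pathway genes.

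Depth limits S1pr1, Sphk1 and Plpp1 in APL, with 4, 17 and 4 fragments in all. Their fold changes are uncertain by at least the counting intervals given, which leave out the spread between libraries. The values are authors' estimates scaled per library, and how fragments of overlapping genes were divided is not known.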

Other observations

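Lysophosphatidic acid (LPA) is a lipid messenger related to S1P, and its receptors were listed as neighbors of the S1P receptors. Of the 5 in the table, 4 fell and 1 rose in APL, with a median log2 fold change of -2.06 (the same with Lpar4 set against 3 fragments in APL), where 24.4% of all genes fell and 21.7% rose. Lpar6 held 486, 492 and 523 scaled fragments in MPs and 30.6, 26.0 and 14.8 in APL, and fell by 4.40 on the log2 scale (SE 0.25; limma adjusted P = 7.3e-07), with a difference of -2.77 on log2(FPKM + 1). Lpar2 held 159, 166 and 168 in MPs and 425, 472 and 442 in APL, and rose by 1.44 (SE 0.11; limma adjusted P = 3.5e-06). The groups were far apart for both. Lpar1 had 52 fragments in MPs and 8 in APL before scaling, and Lpar4 had 17 and 0. For Lpar4 the ratio of summed fragments, allowing for the scaling, had a lower 95% counting limit of 3.60. It was 4.94 against 3 fragments over the APL group.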
